A study of Rattus norvegicus with 18 samples.

Results

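The respiratory chain and ATP synthase genes of the cell nucleus were examined in the brains of alcohol-naive rats from lines bred for high or low ethanol preference. Members were all array probes whose gene symbol, in the scanner files or as the current symbol of the same RefSeq transcript, began with Ndufa, Ndufb, Ndufc, Ndufs, Ndufv, Uqcr, Cox4, Cox5, Cox6, Cox7, Cox8 or Atp5, or was Sdha, Sdhb, Sdhc, Sdhd or Cycs. The rule used no measured value and found 112 probes for 91 of the 16303 named genes on the array. They comprised 33 subunits of complex I, 7 complex I assembly factors of the Ndufaf series, 4 subunits of complex II, 8 of complex III, 16 of complex IV, cytochrome c, 17 genes of the ATP synthase, and 5 genes that carry or once carried such a prefix without being an established subunit of these complexes. The last 5 were Dmac2 (listed in the scanner files as Atp5sl), Dmac2l (listed as Atp5s), Emc8 (listed as Cox4nb), the pseudogene Cox6c-ps1 and Atp5hl1.

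The compared animals were male WHP rats, the high-preferring line, and male WLP rats, the low-preferring line, housed with littermate brothers and killed without exposure to alcohol. The labels give no ages. The areas taken were the nucleus accumbens, the hippocampus and the prefrontal medial cortex, and in each 3 WHP pools were hybridised against 3 WLP pools, each pool holding equal RNA of 3 rats. Each of the 9 pool pairs was run on 2 2-colour Agilent arrays with the dyes exchanged, 18 arrays in all, and the mean of the 2 arrays was 1 replicate. No animal in the design had drunk alcohol, so every strain value is a difference between untreated lines. In pooled bulk tissue, fewer cells of a type and less RNA per cell cannot be told apart.

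The respiratory chain passes electrons from NADH (complex I) and succinate (complex II) through complex III and cytochrome c to oxygen at complex IV, and the proton gradient built on the way drives the ATP synthase. Most subunits are encoded in the nucleus, made in the cytosol and imported, while a few core subunits are encoded by mitochondrial DNA. In brain the pathway supplies most of the ATP used to hold ion gradients and to sustain synaptic transmission, and several complex IV subunits exist as isoforms with tissue-restricted expression.

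Of the 91 genes, 90 were well above background in at least 1 area, which required 4 of the 6 channels of a strain there. Cox8c, the testis isoform of a complex IV subunit, was not detected in any area, and Uqcrq, a small complex III subunit, was detected in the hippocampus alone. No member spot was saturated. The arrays had median signals of 78.2 to 208.7 in green and 133.1 to 302.7 in red. All nucleus accumbens and prefrontal pairs were scanned in a first session and all hippocampus pairs in a second session with higher signals, so that level differences of the hippocampus and the scan session cannot be told apart. The ratios of the same RNA pair on its 2 dye-swapped arrays, turned the same way, correlated poorly in accumbens pair 3 (r = 0.04 over 30217 probes) and hippocampus pair 2 (r = -0.004 over 34752 probes), and at 0.30 to 0.70 in the other pairs. Marker genes of cortex averaged 0.87 log2 units above the array median in accumbens, 2.30 in prefrontal cortex and 2.26 in hippocampus. The 16 markers of striatum separated accumbens (3.58) from hippocampus (1.91) but barely from the prefrontal pools (3.44), and the 11 hippocampal markers lay at 0.93 to 0.98 in all 3 areas. That list did not separate the hippocampal pools as a whole, with 7 of its genes higher and 3 lower there than in accumbens.

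The sequences that follow are the 60-base array probes behind the strain results, written from the scanner files. Dmac2 has 2 probes, both on the plus strand of chromosome 1 in rn4, A_44_P1017897 at chr1:80832966-80833025 and A_44_P323550, whose mapped span of 1246 bases at chr1:80829355-80830600 exceeds its length. They share no run longer than 5 bases and lie 2365 bases apart, and so map to separate places in the genome. Whether both lie in the same transcript was not analysed. The Ndufa12 probe maps to chr7:31376085-31376144 (plus strand) and the Cox8b probe to chr1:201057360-201057419 (minus strand). Exon and UTR positions were not analysed here. All letters are in lower case because no part is singled out.
Dmac2 A_44_P1017897: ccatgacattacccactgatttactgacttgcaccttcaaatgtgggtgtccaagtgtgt
Dmac2 A_44_P323550: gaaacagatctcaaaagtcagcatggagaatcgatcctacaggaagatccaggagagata
Ndufa12: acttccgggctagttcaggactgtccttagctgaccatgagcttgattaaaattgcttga
Cox8b: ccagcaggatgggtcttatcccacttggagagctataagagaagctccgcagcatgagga

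Between the lines, few of these genes differed by test. After loess normalization the strain ratio, given throughout as log2 of WHP over WLP, lay within 0.2 of 0 for 84 of 89 detected members in accumbens, 87 of 89 in prefrontal cortex and 87 of 90 in hippocampus. In accumbens 0 of 89 members passed the test (limma, Benjamini-Hochberg adjusted p under 0.05 over all detected probes), against 0.208% of all named genes. In prefrontal cortex 0 of 89 passed, against 0.103% of named genes. In hippocampus 1 of 90 passed, Dmac2, which was lower in WHP, against 0.171% of named genes (0.102% lower). For the mean of the 3 areas 2 of 89 passed, Dmac2 and Ndufa12, both lower in WHP, against 2.6% of named genes (1.52% lower). These counts are close to what the shares of all named genes give for so few genes, and they moved with single pairs. The count in the mean was 5 without prefrontal pair 1, 4 without accumbens pair 1, 0 without prefrontal pair 3, and 1 without accumbens pair 3 or any 1 hippocampal pair, and the count in hippocampus was 0 without any 1 of the 9 pairs.

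At an unadjusted p under 0.05 in the same limma fit, 17 members were higher and 6 lower in accumbens, where 15.9% of named genes reached that level (7.39% higher and 8.52% lower). The smallest adjusted p among them was 0.17. The corresponding counts were 4 higher and 2 lower in prefrontal cortex, where 8.89% of named genes reached that level (4.13% higher and 4.76% lower). They were 0 higher and 3 lower in hippocampus (6.9% of named genes, 3.23% higher and 3.66% lower), and 9 higher and 4 lower in the mean of the areas (18.7%, 8.68% higher and 10.1% lower). Among genes at that level in accumbens, members were more often higher in WHP and all named genes more often lower. The medians over members were 0.028 in accumbens, 0.021 in prefrontal cortex and -0.010 in hippocampus, beside 0.005, 0.001 and -0.004 over all named genes. With median in place of loess normalization the member medians were 0.20, 0.079 and -0.20, with 0 members past the test in each of the 3 areas.

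**Figure D1:**
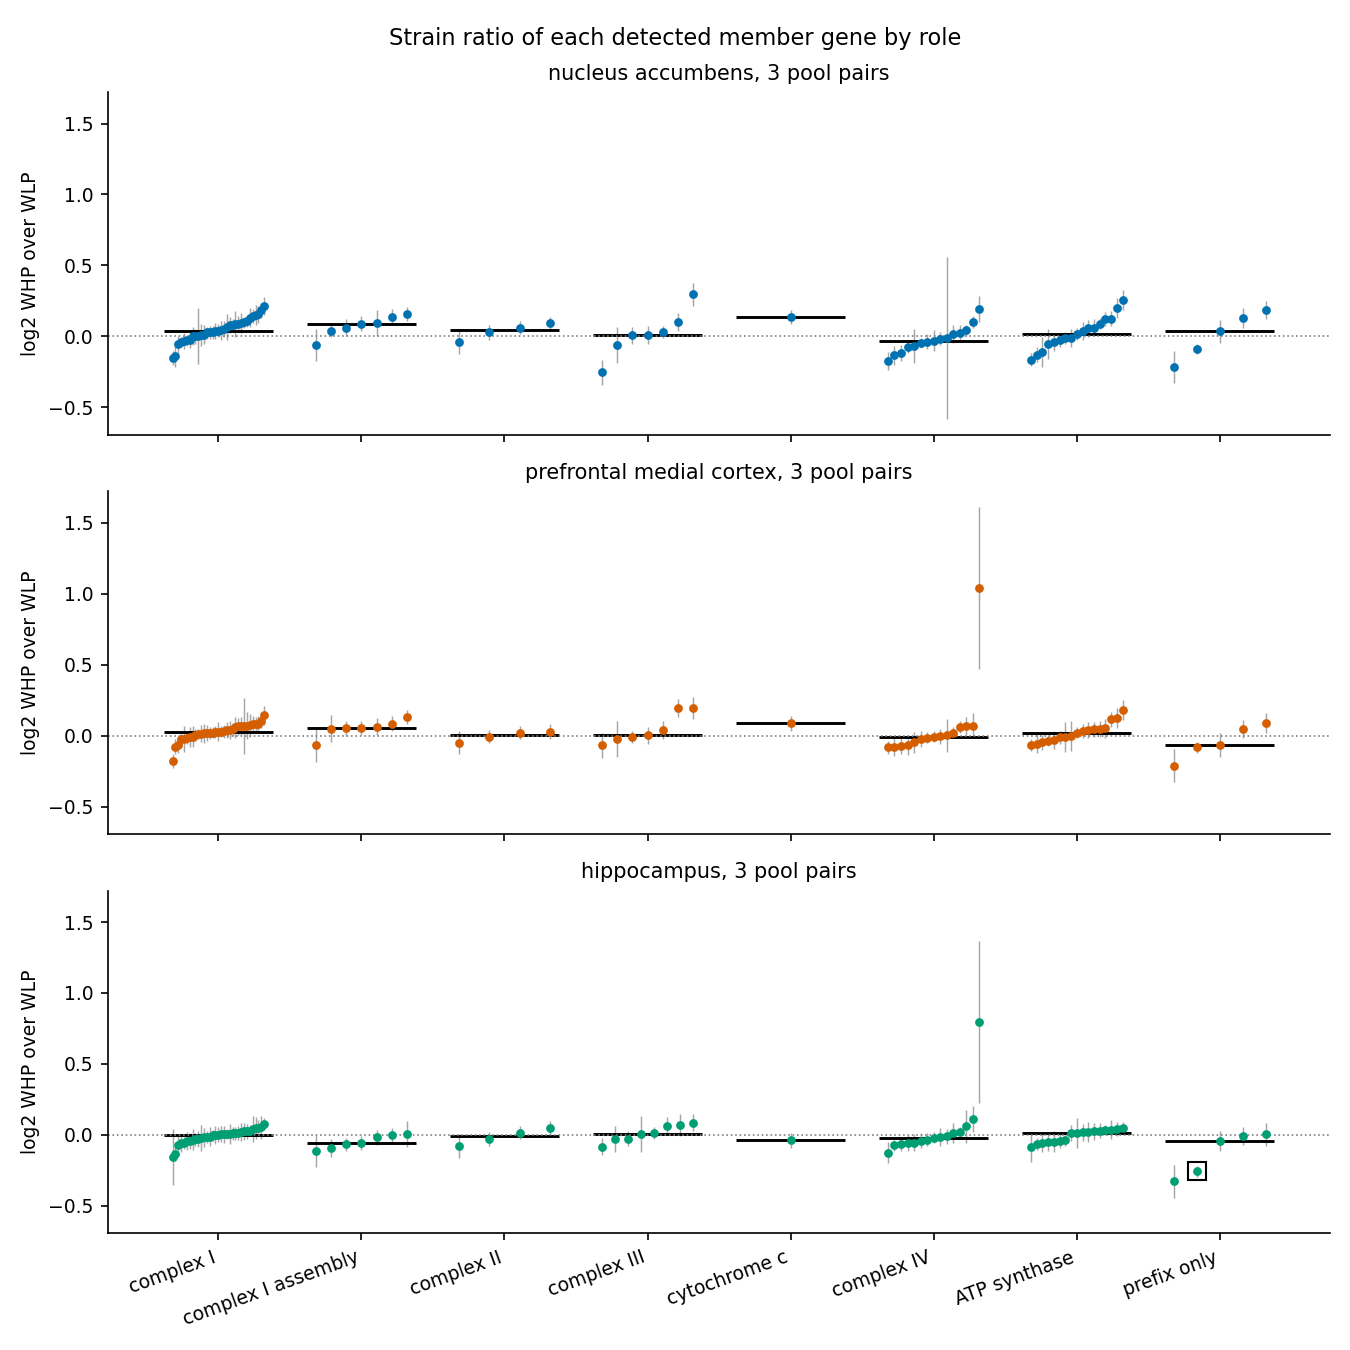
Log2 WHP over WLP of each detected member (points, bars 1 SE, n = 3 pool pairs per area) in the 3 areas, ordered by role. The black line is the median of a role and the black square marks the value past the test, Dmac2 at -0.26 in hippocampus. Nearly all points sit within 0.2 of 0, and the points far above are Cox8b in prefrontal cortex and hippocampus.

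The signs of the members followed the pool pair more than the line. In accumbens the 3 pairs gave medians over 89 members of 0.097, -0.065 and 0.074. Pair 1 had 69 members above 0 and 20 below, and pair 2 had 29 above and 60 below. Accumbens pair 2 thus ran against pairs 1 and 3. In prefrontal cortex the medians were -0.018, 0.075 and 0.00060, with 68 of 89 members above 0 in pair 2. In hippocampus they were -0.014, -0.031 and 0.016. Over all named genes the median stayed between -0.020 and 0.011 in all 9 pairs, where the within-array loess holds it near 0. The member shift was no larger than that of all named genes in prefrontal pairs 1 and 3.

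The member medians of the accumbens pairs had the same sign in both dye orientations, although the ratios of single members did not repeat well. Over the 89 members the swapped arrays correlated across genes at -0.01, 0.15 and -0.34 in accumbens pairs 1 to 3. In pair 1 the member median was 0.071 on the array with WHP in Cy3 and 0.087 with WHP in Cy5. In pair 2 it was -0.064 and -0.055, and in pair 3 it was 0.021 and 0.113. Prefrontal pairs 1 to 3 gave -0.047, 0.13 and -0.024 with WHP in Cy3 and -0.011, 0.046 and 0.016 with WHP in Cy5. Hippocampus pairs 1 to 3 gave -0.057, -0.070 and -0.034 with WHP in Cy3 and 0.012, -0.016 and 0.028 with WHP in Cy5. The sign was thus the same on both arrays in 6 of the 9 pairs, and it changed in prefrontal pair 3 and hippocampus pairs 1 and 3. Markers of other cells moved in the same pairs. The median of 15 oligodendrocyte markers was -0.35, 0.19 and -0.26 in accumbens pairs 1 to 3 and -0.61, 0.45 and 0.32 in prefrontal pairs 1 to 3. Its sign was opposite to that of the members in all 3 accumbens pairs and the same in all 3 prefrontal pairs. In prefrontal pairs 1 and 3 the member medians (-0.018 and 0.00060) were smaller in size than those of all named genes (-0.020 and 0.011). Their sign there carries little weight. In hippocampus the oligodendrocyte median was 0.31, 0.19 and 0.13, beside member medians of -0.014, -0.031 and 0.016. The 15 astrocyte markers had medians of -0.14, -0.13 and -0.26 in accumbens and -0.29, -0.12 and -0.18 in prefrontal cortex, below 0 in all 6 pairs. The 11 neuron markers detected had medians of 0.030, -0.061 and 0.047 in accumbens, with the sign of the members in all 3 pairs. In prefrontal cortex their medians were 0.23, -0.083 and -0.017, opposite in sign to the members, with the same limit for pairs 1 and 3. In hippocampus they were -0.12, 0.028 and -0.19. Microglia markers (12 genes) had medians of -0.28, 0.083 and -0.17 and endothelial markers (9 genes) of -0.20, 0.13 and -0.13 in accumbens, both opposite in sign to the members in all 3 pairs. Striatum markers (16 genes) were at -0.30, -0.66 and -0.058 in accumbens, below 0 in all 3 pairs, with 14 of 16 below 0 over the area and 1 past the test, and at -0.73, 0.27 and 0.29 in prefrontal cortex. The part of these cell types in the member values was not tested.

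**Figure D2:**
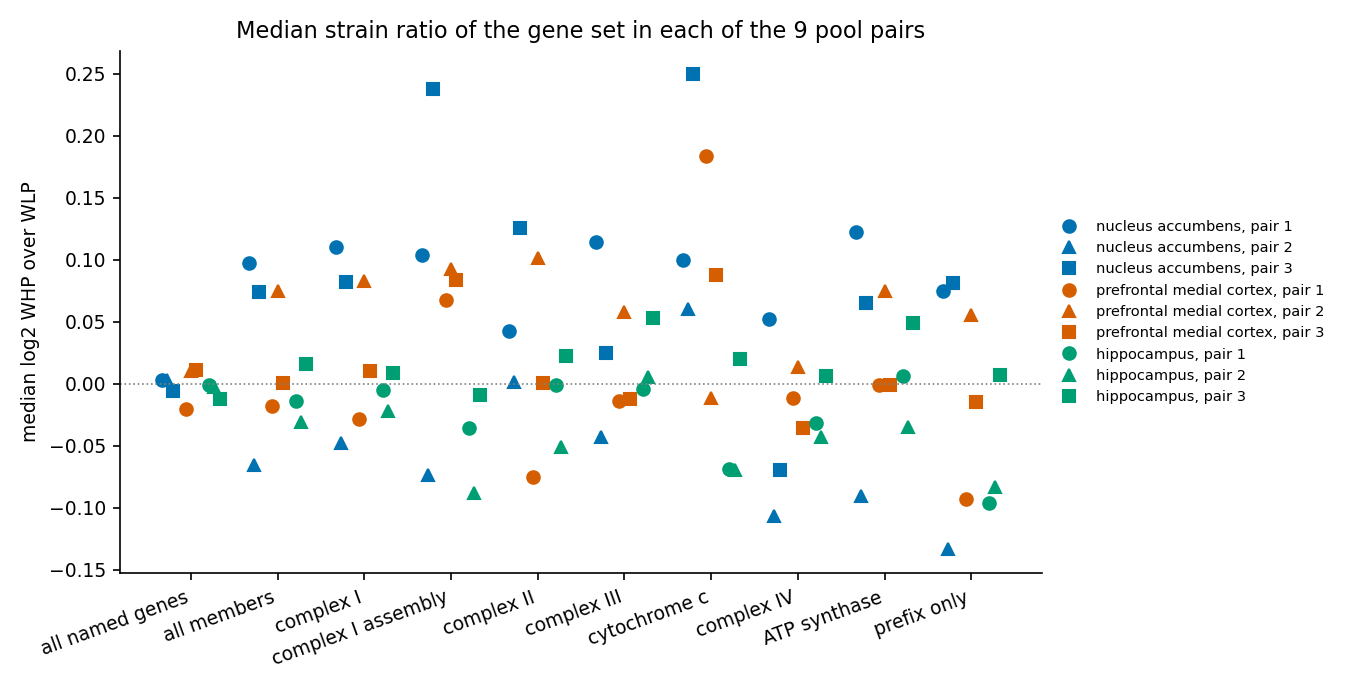
Median log2 WHP over WLP of gene sets in each of the 9 pool pairs. The members lie at 0.097, -0.065 and 0.074 in the accumbens pairs and near 0 in most other pairs, and all named genes lie near 0 throughout.

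Complex I, which oxidises NADH and is the largest complex of the chain, showed the same pattern. Its 33 subunits had medians of 0.11, -0.048 and 0.082 in accumbens pairs 1 to 3, of -0.029, 0.083 and 0.010 in the prefrontal pairs, and of -0.0050, -0.022 and 0.0088 in the hippocampal pairs. In prefrontal pair 2, 30 of the 33 were above 0. Over the 3 pairs of an area 26 were above 0 in accumbens, 25 in prefrontal cortex and 16 in hippocampus. In accumbens 6 were higher and 1 lower at an unadjusted p under 0.05, beside 7.39% and 8.52% of named genes.

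Ndufa12, an accessory subunit of complex I, was lower in WHP in each of the 9 pool pairs. Its ratios were -0.03, -0.23 and -0.19 in accumbens, -0.20, -0.11 and -0.23 in prefrontal cortex, and -0.17, -0.15 and -0.10 in hippocampus. No pair was above 0, and the 3 areas overlapped. The mean over the areas was -0.16 ± 0.03 (SE, n = 9 pool pairs, limma adjusted p = 0.025), a 1.11-fold lower level in WHP. Leaving out accumbens pair 3, prefrontal pair 3 or any 1 hippocampal pair ended the call, at -0.15, -0.15 and -0.16 to -0.15 (adjusted p of 0.064 to 0.093). No single area passed, with adjusted p of 0.21, 0.33 and 0.58. Ndufa12 and Dmac2 were the 2 of 89 members with the same sign in all 9 pairs, and 3.34% of all named genes had such a constant sign. Within an area, the 3 pairs had the same sign for 28.1% of members in accumbens, 22.5% in prefrontal cortex and 35.6% in hippocampus, beside 29.3%, 27.9% and 38.9% of all named genes.

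The other complex I subunits singled out by the naming rule did not pass. Ndufv2, an iron-sulfur subunit of the NADH-oxidising arm, had a mean of 0.10 ± 0.03 (SE, n = 9, limma adjusted p = 0.12), with 7 of 9 pairs above 0. Its values were 0.20, 0.09 and 0.25 in accumbens and 0.03, -0.03 and 0.08 in hippocampus. The difference between these areas did not pass for any member. Ndufb5, an accessory subunit of the membrane arm, had a mean of 0.08 (adjusted p = 0.20). Ndufs7, an iron-sulfur subunit near the ubiquinone site, had the smallest p among other complex I subunits below 0, at -0.03 (adjusted p = 0.70).

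The 7 Ndufaf genes, which help to assemble complex I and are not part of the finished enzyme, had medians of 0.10, -0.073 and 0.24 in accumbens, 0.067, 0.092 and 0.084 in prefrontal cortex, and -0.036, -0.088 and -0.0088 in hippocampus. The medians were above 0 in all accumbens and prefrontal pairs except accumbens pair 2, and below 0 in all 3 hippocampal pairs. By area, 6 of 7 genes were above 0 in accumbens and in prefrontal cortex and 1 of 7 in hippocampus. Ndufaf1 had a mean of 0.07 (adjusted p = 0.27) and Ndufaf6 of -0.08 (adjusted p = 0.56), and none of the 7 passed in any area or in the mean.

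Dmac2, named in the scanner files as an ATP synthase gene, is now known as an assembly factor of the membrane arm of complex I. By its brighter probe the ratios were -0.09, -0.13 and -0.05 in accumbens, -0.10, -0.04 and -0.11 in prefrontal cortex, and -0.21, -0.29 and -0.26 in hippocampus. All 9 were below 0, and the 3 hippocampal pairs lay below the other 6. The hippocampal mean was -0.26 ± 0.04 (SE, n = 3, limma adjusted p = 0.038), a 1.20-fold lower level in WHP, and the mean over the areas was -0.14 ± 0.02 (SE, n = 9, limma adjusted p = 0.012). The difference between hippocampus and accumbens was -0.17 ± 0.05 (limma adjusted p = 0.58) and that between hippocampus and prefrontal cortex -0.17 ± 0.05 (adjusted p = 1.00), so the areas could not be separated. The second probe gave -0.20, -0.01 and 0.04 in accumbens, -0.11, 0.06 and -0.12 in prefrontal cortex, and -0.32, -0.32 and -0.31 in hippocampus. Its hippocampal mean was -0.32 ± 0.05 (limma adjusted p = 0.085) and its mean over the areas -0.14 ± 0.03 (adjusted p = 0.055). The 2 probes gave like sizes in hippocampus, and 1 of them passed. Without any 1 of the 9 pool pairs the hippocampal value of the brighter probe stayed between -0.28 and -0.24 and lost its call, and without prefrontal pair 3 the mean over the areas was -0.14 (limma adjusted p = 0.051). The value depended on the dye orientation. With WHP in Cy3 alone it was -0.42 in hippocampus and -0.26 in the mean, and with WHP in Cy5 alone -0.094 and -0.027. The call in the mean was kept with Cy3 alone, and the other calls were lost.

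**Figure D3:**
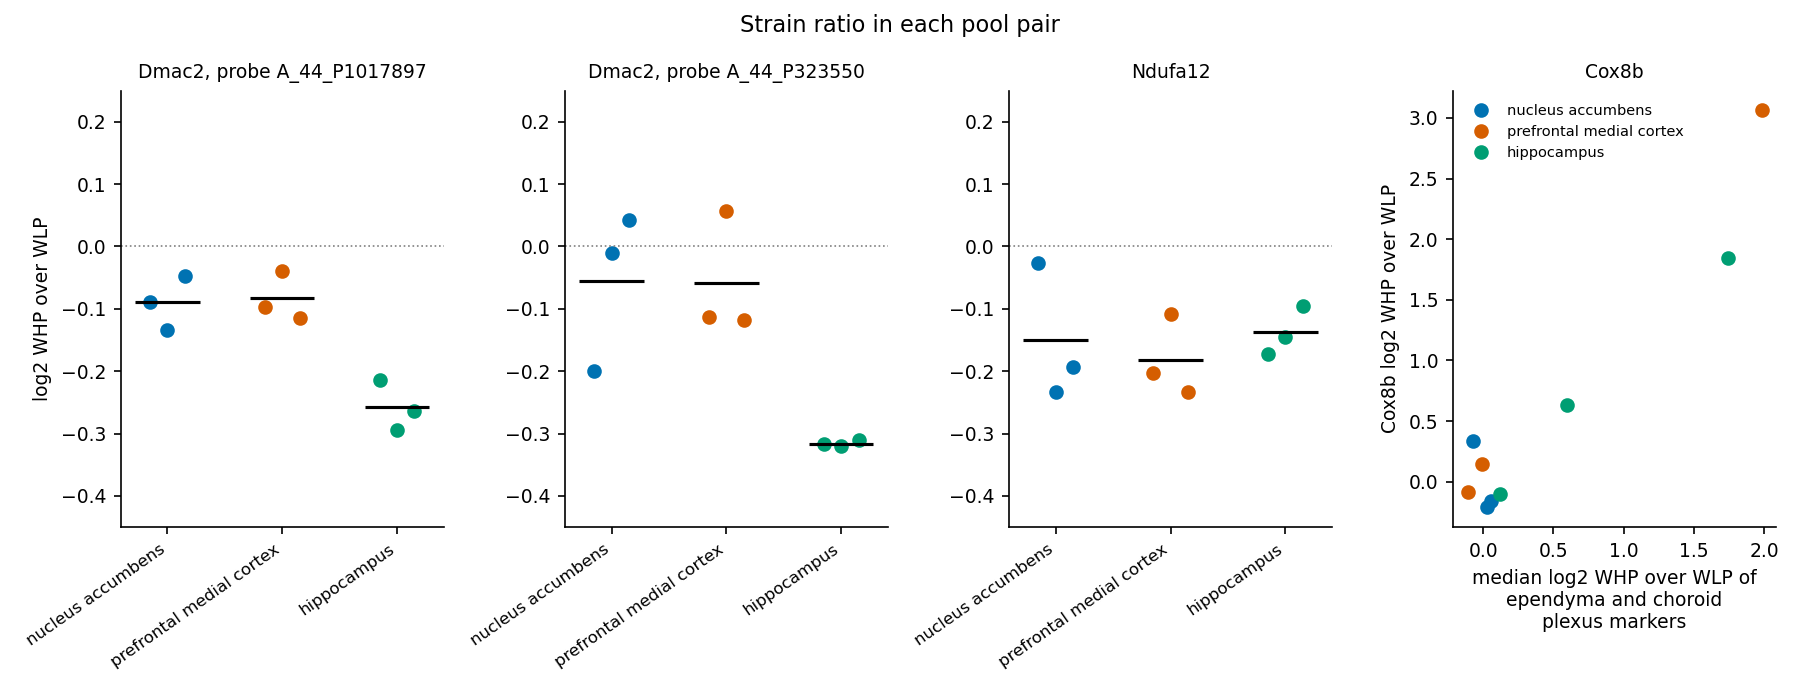
Log2 WHP over WLP in each pool pair (points) with the area mean (line) for both Dmac2 probes and Ndufa12, and Cox8b plotted against the median of 12 ependyma and choroid plexus markers in the same pairs. Both Dmac2 probes lie between -0.32 and -0.21 in the 3 hippocampal pairs, and Cox8b is highest in the pairs with the highest marker medians.

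Complex II, the succinate dehydrogenase of the citric acid cycle, has no mitochondria-encoded subunit. The medians of Sdha to Sdhd were 0.042, 0.0011 and 0.13 in accumbens, -0.075, 0.10 and 0.00073 in prefrontal cortex, and -0.0013, -0.051 and 0.022 in hippocampus. All 4 were below 0 in prefrontal pair 1 and above 0 in prefrontal pair 2. The membrane anchors Sdhd and Sdhc had means of 0.03 and -0.06 over the areas (adjusted p = 0.55 and 0.58).

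Complex III hands electrons to cytochrome c. Its detected subunits had medians of 0.11, -0.043 and 0.025 in accumbens, -0.014, 0.058 and -0.012 in prefrontal cortex, and -0.0039, 0.0058 and 0.053 in hippocampus. Uqcrfs1, the Rieske iron-sulfur protein, had the highest accumbens ratio of the 89 members, at 0.30 ± 0.08 (SE, n = 3). Its ratios were 0.28, 0.13 and 0.47 in accumbens, -0.02, 0.28 and 0.32 in prefrontal cortex, and 0.14, 0.01 and 0.06 in hippocampus. It was above 0 in 8 of 9 pairs and did not pass in the mean (0.19 ± 0.05, SE, limma adjusted p = 0.078). The second Uqcrfs1 probe had a mean of -0.04 (adjusted p = 0.70), and the probes of this gene therefore disagreed in sign. Uqcr11, a small subunit, had a mean of -0.12 (adjusted p = 0.28), with -0.38 and -0.39 in accumbens pairs 2 and 3 and values above 0 in 4 of the 9 pairs.

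Cytochrome c, the soluble carrier between complexes III and IV, gave 0.10, 0.06 and 0.25 in accumbens, 0.18, -0.01 and 0.09 in prefrontal cortex, and -0.07, -0.07 and 0.02 in hippocampus. Its accumbens pairs lay above its hippocampal pairs, but the difference between these areas did not pass (limma adjusted p = 0.58). How many genes separate in this way was not counted. The mean was 0.06 ± 0.03 (SE, n = 9, limma adjusted p = 0.33), and the 3 Cycs probes ranged from 0.06 to 0.11.

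Complex IV, the cytochrome c oxidase, was the group whose accumbens median was below 0. Its 15 detected genes had medians of 0.053, -0.11 and -0.070 in accumbens, -0.012, 0.014 and -0.035 in prefrontal cortex, and -0.031, -0.043 and 0.0066 in hippocampus. Over the 3 pairs 5 of 15 were above 0 in accumbens, 6 in prefrontal cortex and 5 in hippocampus, beside 26, 25 and 16 of 33 for complex I. In accumbens pair 3 the complex IV median was negative while that of complex I was positive. No complex IV gene passed in an area or in the mean.

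Several complex IV subunits have isoform pairs. Cox8a, the widely expressed form of the smallest subunit, gave 0.05, -0.28 and -0.29 in accumbens and a mean of -0.09 (adjusted p = 0.25). Cox6a2, the heart and muscle form, had a mean of -0.06 (adjusted p = 0.33), and its second probe a mean of 0.005. Its widely expressed partner Cox6a1 had a mean of -0.06 (adjusted p = 0.35), made of opposite values in the 2 dye orientations. They were 0.16 with WHP in Cy5 and -0.28 with WHP in Cy3. Cox6b2, best known from testis, had a mean of 0.12 (adjusted p = 0.26) and was above 0 in 8 of 9 pairs. Cox4i1 and its partner Cox4i2 had means of -0.0024 and -0.06, and Cox7a2 and Cox7a2l of -0.06 and 0.0036. Ndufa4, once counted with complex I and now placed with complex IV, had a mean of 0.01. Within these isoform groups no difference between the lines passed the test.

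Cox8b, the muscle-type isoform of the same small subunit, was the most variable member. Its ratios were -0.16, -0.21 and 0.33 in accumbens, -0.08, 3.06 and 0.14 in prefrontal cortex, and 1.85, -0.10 and 0.63 in hippocampus. Prefrontal pair 2 and hippocampus pair 1 stood far above the other 7 pairs, and the mean of 0.61 ± 0.33 (SE, n = 9, limma adjusted p = 0.38) did not pass. In prefrontal pair 2 the log2 level was 10.96 in the WHP pool and 7.89 in the WLP pool, and in hippocampus pair 1 it was 10.80 and 8.96. The median ratio of 12 ependyma and choroid plexus markers, cells that line the ventricles, was 1.98 in prefrontal pair 2 and 1.75 in hippocampus pair 1, with 12 of 12 above 0 in both. The choroid marker Ttr was at 3.91 and 3.07 there. In hippocampus pair 3, the pair with the next highest Cox8b ratio, the marker median was 0.60, and in the other 6 pairs it lay between -0.11 and 0.12. Of the 12 markers, 9 were detected in accumbens, 8 in prefrontal cortex and 12 in hippocampus. The part of these cells in the Cox8b values was not tested.

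The ATP synthase uses the proton gradient to make ATP. Its 17 genes had medians of 0.12, -0.090 and 0.065 in accumbens, -0.0012, 0.075 and -0.00074 in prefrontal cortex, and 0.0065, -0.035 and 0.049 in hippocampus. In accumbens 5 were higher and 2 lower at an unadjusted p under 0.05, beside 7.39% and 8.52% of named genes. Atp5f1c, the central shaft subunit gamma, gave 0.20, 0.13 and 0.44 in accumbens, -0.0012, 0.31 and 0.23 in prefrontal cortex, and 0.06, -0.02 and 0.02 in hippocampus. The accumbens pairs lay above the hippocampal pairs, a difference that did not pass. The mean of 0.15 ± 0.04 (SE, n = 9) did not pass either (limma adjusted p = 0.10). Atp5pb, a subunit of the peripheral stalk, was above 0 in 8 of 9 pairs with a mean of 0.09 (adjusted p = 0.17). Atp5f1d, the delta subunit of the shaft, had a mean of -0.05 (adjusted p = 0.33) and Atp5me, a small membrane subunit, of -0.05 (adjusted p = 0.40). The 3 genes for the membrane ring subunit c, Atp5mc1, Atp5mc2 and Atp5mc3, had means of 0.04, -0.0025 and 0.09.

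Among the remaining genes caught by their prefix, Atp5hl1 had a mean of 0.07 (adjusted p = 0.33). Dmac2l, named here after its values were seen and known as coupling factor B, had the lowest mean of any member at -0.25 ± 0.07 (SE, n = 9, limma adjusted p = 0.095). Its ratios were -0.07, -0.64 and 0.07 in accumbens, -0.09, -0.32 and -0.22 in prefrontal cortex, and -0.33, -0.27 and -0.39 in hippocampus, with 8 of 9 below 0.

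The differences of the strain ratio between areas gave 0 of 89 members past the test in all 3 comparisons, as for all named genes (0.0% called). At an unadjusted p under 0.05 (limma), accumbens minus prefrontal cortex had 0 members higher and 1 lower (3.3% of named genes, 1.4% higher and 1.9% lower). Hippocampus minus accumbens had 1 higher and 8 lower (8.14%, 3.87% higher and 4.27% lower), and hippocampus minus prefrontal cortex 0 higher and 2 lower (3.67%, 1.64% higher and 2.03% lower). In hippocampus minus accumbens 65 of 89 members were below 0, with a median of -0.050. These comparisons share their pools, and the counts are no separate evidence.

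The dye weighed on these small ratios. For 56 of 90 members the 2 dye orientations gave opposite signs of the mean ratio. By arithmetic these are the members whose dye term, the part of the ratio that turns with the orientation, was larger than the strain mean. The median size of the dye term was 0.058 and the median size of the strain mean 0.039. Averaging the swapped arrays cancels a constant dye effect, but the members' values are near the size of what was cancelled.

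Other genes of mitochondria were read from fixed pathway lists. Of 70 mitochondrial ribosomal protein genes, 56 were above 0 in accumbens (median 0.088), 44 in prefrontal cortex (0.033) and 28 in hippocampus (-0.010). Their accumbens pair medians were 0.14, -0.056 and 0.12, with the same sign as those of the members in each pair. In the mean of the areas 1 of these passed as higher, Mrpl43 (0.31, limma adjusted p = 0.004), and 2 as lower, Mrpl4 (-0.36, adjusted p = 0.001) and Mrpl52 (-0.55), beside 2.6% of all named genes in the mean. In single areas 1 of the 70 passed as lower in accumbens, 2 in prefrontal cortex and 2 in hippocampus. The shares of all named genes lower in those areas were 0.147%, 0.0473% and 0.102%. The 28 detected assembly factors of complexes II to V and further ones of complex I had accumbens pair medians of 0.13, -0.066 and 0.14, and 1 passed in the mean, Coa7, a complex IV assembly factor (0.25 ± 0.05, SE, adjusted p = 0.032). Among 18 tested regulators of nuclear-encoded mitochondrial genes 1 passed, the mitochondrial DNA helicase Twnk (-0.15 ± 0.03, SE, adjusted p = 0.033). These counts of 1 of 28 and 1 of 18 stand beside the same 2.6%. Of 17 genes of pyruvate dehydrogenase and the citric acid cycle, 16 of glycolysis, 14 of other electron entry and 10 inner membrane carriers, 0 passed in an area or in the mean. Probes for the 13 mitochondria-encoded subunits were not found by name and those genes were not analysed here.

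The level of the members was next compared between areas, as the mean log2 intensity of both channels of a pool pair after quantile scaling between arrays. Between accumbens and prefrontal cortex, whose same-numbered pairs shared slides, 34 of 89 members were higher in accumbens and 9 lower (limma adjusted p under 0.05), against 50.3% of all named genes past the test (23.6% higher and 26.7% lower). The median difference was 0.086 over members and -0.009 over named genes. In hippocampus against accumbens 31 of 90 were higher and 36 lower (74.3% of named genes past the test, 40.6% higher and 33.7% lower), with medians of -0.016 and 0.046. In hippocampus against prefrontal cortex 41 of 90 were higher and 23 lower (71.9%, 39.1% higher and 32.8% lower), with medians of 0.094 and 0.039. The member counts of 43, 67 and 64 are close to what those shares give.

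Level differences depended on how arrays were scaled to each other. With arrays scaled to their median in place of quantile scaling, 0 of 89 members passed between accumbens and prefrontal cortex, against 5.86% of named genes. In hippocampus against accumbens 13 were then higher and 2 lower (40.6% of named genes), where the median of all named genes itself stood at 0.17. In hippocampus against prefrontal cortex 27 were higher and 2 lower (42.8%), with that median at 0.18. With the scanner's processed signals, 1 member was higher and 21 lower in accumbens against prefrontal cortex (51.2% of named genes past the test). The median was then -0.12 over members and -0.15 over all named genes. Under all 4 scalings tried, 0 members kept their call between accumbens and prefrontal cortex, 15 did between hippocampus and accumbens (13 higher, 2 lower), and 18 between hippocampus and prefrontal cortex (16 higher, 2 lower). The lower genes were Uqcrc1 and Dmac2 in both.

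**Figure D4:**
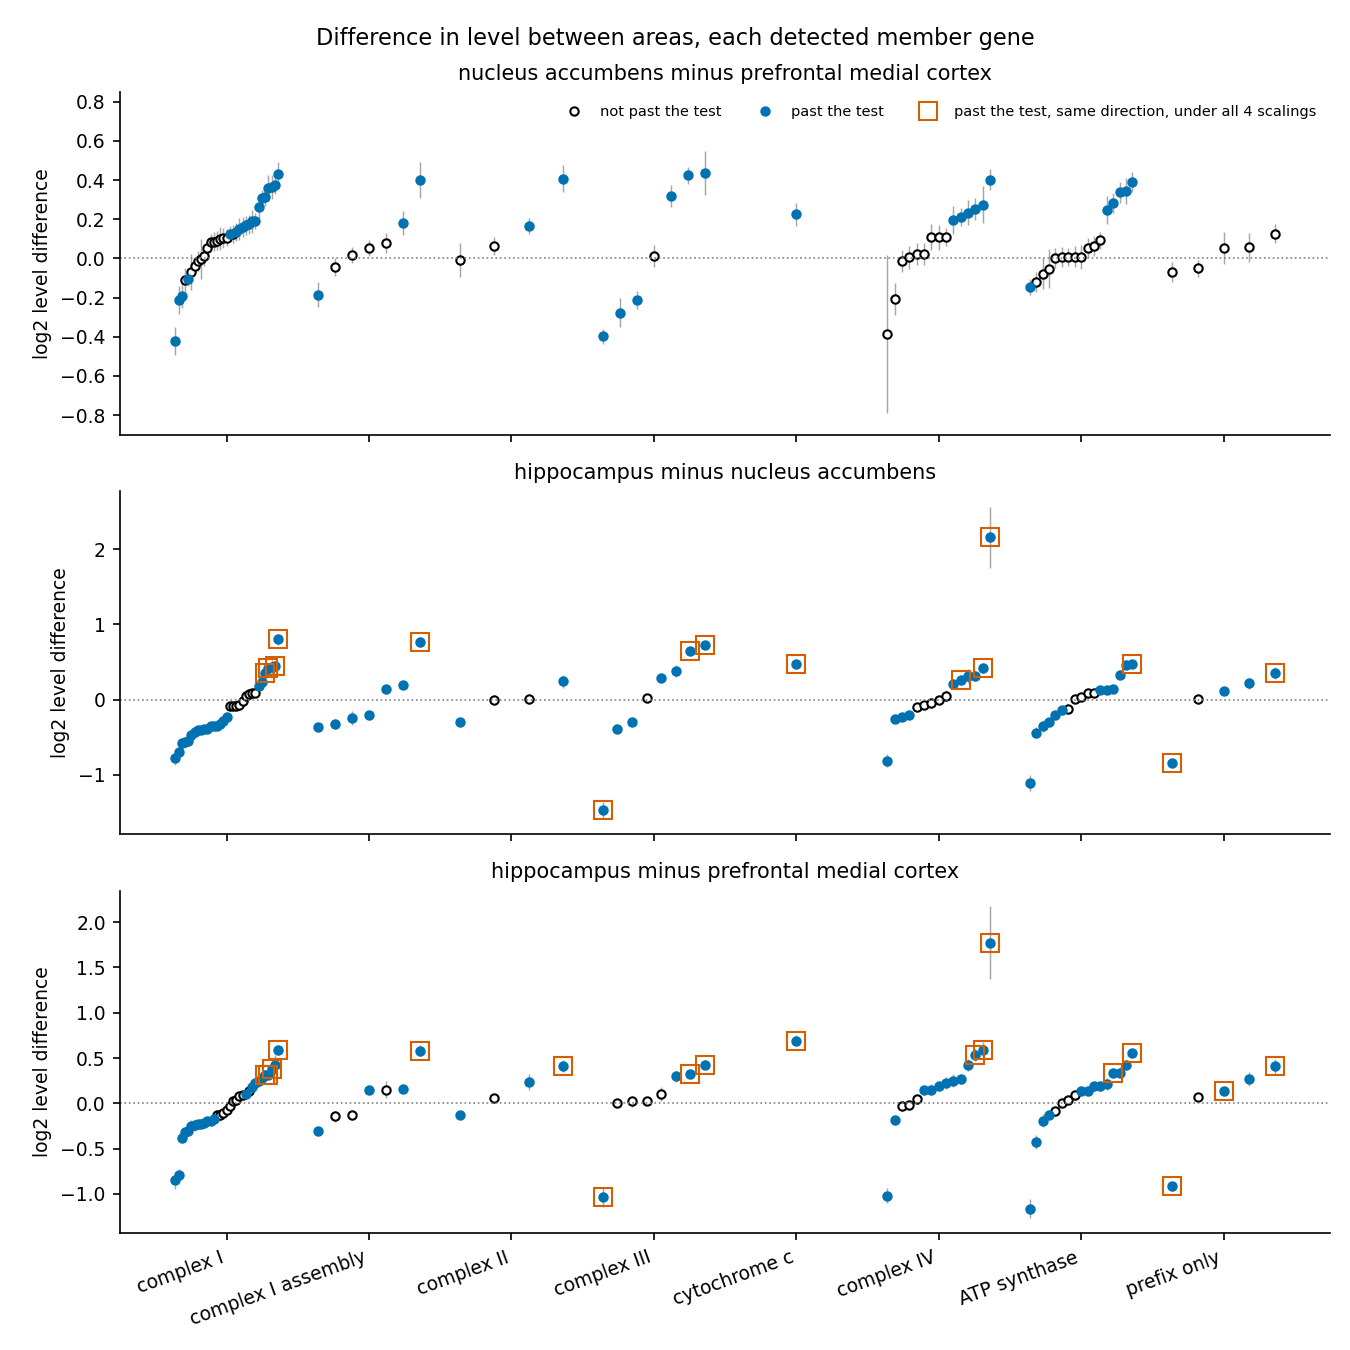
Difference in log2 level between areas for each detected member (points, bars 1 SE, n = 3 pool pairs per area), by role. Filled points passed the test and orange squares mark those that passed in the same direction under all 4 scalings, such as Uqcrc1 (-1.47) and Cox8b (2.16) in hippocampus minus accumbens. No square appears in accumbens minus prefrontal cortex.

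Complex III held opposite moves of its core proteins. Uqcrc1, core protein 1, was at 10.79, 10.50 and 10.30 in accumbens, 10.18, 9.96 and 10.14 in prefrontal cortex, and 9.11, 9.06 and 9.00 in hippocampus. The 3 areas did not overlap, and hippocampus was 2.77-fold below accumbens (-1.47 ± 0.11, SE, n = 3 against 3, limma adjusted p = 1.6e-06) and 2.05-fold below prefrontal cortex. Uqcrc2, core protein 2, was at 13.60, 13.67 and 13.66 in accumbens, 14.04, 14.06 and 14.03 in prefrontal cortex, and 14.36, 14.38 and 14.37 in hippocampus, an order opposite to that of Uqcrc1. It was 0.73 ± 0.04 above accumbens and 0.33 ± 0.04 above prefrontal cortex in hippocampus (limma adjusted p = 2.3e-07 and 3.9e-05). Uqcrfs1 was 0.64 and 0.43 higher in hippocampus than in the other areas. Against prefrontal cortex, accumbens was higher for Uqcrc1 (0.44) and Uqcrb (0.43), and lower for Uqcrc2 (-0.40), Uqcr11 (-0.28) and Uqcrfs1 (-0.21), none of which kept its call under all scalings. The Uqcrfs1 probes differed in sign there, the second being 0.32 higher in accumbens. Uqcrb differed by probe too, with a second probe 0.53 higher in hippocampus than in accumbens and the brightest one -0.40.

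With quantile scaling, 7 of 33 complex I subunits were higher and 17 lower in hippocampus than in accumbens (median -0.23), beside 40.6% and 33.7% of named genes. Against prefrontal cortex 10 were higher and 13 lower (median -0.078), beside 39.1% and 32.8%. With arrays scaled to their median 4 were higher and 0 lower against accumbens, and 8 higher and 0 lower against prefrontal cortex. Named genes moved up as well under that scaling. Against accumbens 3952 of 14742 were higher and 2029 lower, and against prefrontal cortex 4137 of 14705 were higher and 2161 lower. The upward shift was thus not confined to complex I. Ndufv1, the flavoprotein that takes electrons from NADH, was at 12.47, 12.38 and 12.13 in accumbens, 12.50, 12.29 and 12.39 in prefrontal cortex, and 11.63, 11.44 and 11.56 in hippocampus. It was 1.72-fold lower in hippocampus than in accumbens (-0.78 ± 0.09, SE, limma adjusted p = 3.2e-05), with no overlap. Ndufs1, which carries iron-sulfur clusters in the same arm, was 0.79 lower than in prefrontal cortex, and Ndufa12 was 0.70 lower than in accumbens. With arrays scaled to their median these 3 differences shrank to -0.28, -0.30 and -0.36 and none kept its call. Ndufs4, an accessory subunit, went the other way, at 9.26, 9.10 and 9.03 in accumbens, 9.49, 9.62 and 9.55 in prefrontal cortex, and 9.89, 9.86 and 10.05 in hippocampus. It was 0.80 ± 0.07 higher in hippocampus than in accumbens and 0.38 ± 0.07 higher than in prefrontal cortex (limma adjusted p = 5.2e-06 and 0.00095). Ndufab1, the mitochondrial acyl carrier protein, was 0.44 and 0.59 higher in hippocampus. Accumbens exceeded prefrontal cortex for Ndufb4 (0.43) and lay below it for Ndufs4 (-0.42), Ndufs1 (-0.21) and Ndufa10l1 (-0.19), a near copy of Ndufa10 whose probes may share signal.

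Among the assembly factors, Ndufaf4 was 0.77 and 0.58 higher in hippocampus by its brightest probe, while another of its 3 probes was -0.37 against accumbens (limma adjusted p = 0.00039), so the direction for this gene depends on the probe. Ndufaf6 was 0.40 higher in accumbens than in prefrontal cortex. Dmac2 was at 9.55, 9.48 and 9.44 in accumbens, 9.58, 9.49 and 9.62 in prefrontal cortex, and 8.70, 8.64 and 8.60 in hippocampus. It was 1.80-fold lower in hippocampus than in accumbens (-0.85 ± 0.05, SE, limma adjusted p = 4.3e-07), its second probe being lower by -0.36. The hippocampal pairs did not overlap those of the other areas, and the WHP pools were at 8.46 to 8.59 there and the WLP pools at 8.73 to 8.80. In complex II, Sdhc was 0.41 higher in accumbens and in hippocampus than in prefrontal cortex.

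Of the 15 complex IV genes 6 were higher and 4 lower in hippocampus than in accumbens (40.6% and 33.7% of named genes), and 10 higher and 2 lower than in prefrontal cortex (39.1% and 32.8%). With arrays scaled to their median the counts were 3 higher and 0 lower, and 5 higher and 0 lower. Of all named genes 40.6% and 42.8% then passed in either direction. Cox4i1, the widely expressed form of subunit 4, was at 13.60, 13.45 and 13.26 in accumbens, 13.66, 13.58 and 13.69 in prefrontal cortex, and 12.68, 12.52 and 12.67 in hippocampus. Hippocampus was 2.03-fold below prefrontal cortex (-1.02 ± 0.08, SE, limma adjusted p = 3.7e-06), which became -0.38 and lost its call when arrays were scaled to their median. Its partner Cox4i2, the lung and hypoxia-linked form, was 0.10 lower than in accumbens without passing (adjusted p = 0.13) and 0.15 higher than in prefrontal cortex. Cox6a1 and Cox6a2 were 0.21 and 0.26 higher in hippocampus than in accumbens, Cox6b2 0.42 and Cox7a2 0.31 higher, and Cox7a2l 0.21 lower. Of these genes, Cox6a2 and Cox6b2 kept their call under all 4 scalings and the others did not. With quantile scaling Cox8a, at 16.05 to 16.25 in all 9 pairs, did not differ beyond its error between areas (limma adjusted p of 0.43 to 0.77). That scaling gives every array the same distribution of levels, so a shift shared by bright probes would not show. Cox7c was 0.58 higher in hippocampus than in prefrontal cortex, and Cox5a 0.40 higher in accumbens than in prefrontal cortex.

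Cox8b was at 8.34, 7.65 and 7.97 in accumbens, 7.88, 9.43 and 7.81 in prefrontal cortex, and 9.88, 9.87 and 10.68 in hippocampus. It was 4.46-fold higher in hippocampus than in accumbens (2.16 ± 0.40, SE, limma adjusted p = 0.00079), with no overlap. Within prefrontal cortex 1 pair stood apart, pair 2, the one with the high WHP pool. The 12 ependyma and choroid plexus markers averaged 2.38 to 2.93 above the array median in the hippocampal pairs, 0.46 to 0.74 in the accumbens pairs and 0.10 to 1.87 in the prefrontal pairs, and their part in the level of Cox8b was not tested. Cytochrome c was at 14.45, 14.49 and 14.62 in accumbens, 14.25, 14.35 and 14.27 in prefrontal cortex, and 14.92, 15.08 and 14.96 in hippocampus. By the brightest probe the 3 areas did not overlap, and hippocampus was 1.62-fold above prefrontal cortex (0.69 ± 0.06, SE, limma adjusted p = 5.6e-06). All 3 Cycs probes were higher in hippocampus than in either area. Accumbens minus prefrontal cortex differed in sign by probe, at 0.23 for the brightest and -0.18 and -0.07 for the others.

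Of the 17 ATP synthase genes 6 were higher and 6 lower in hippocampus than in accumbens, beside 40.6% and 33.7% of named genes. With arrays scaled to their median 1 was higher and 0 lower, where 40.6% of named genes passed in either direction. Atp5f1a, the alpha subunit of the catalytic head, was at 13.72, 13.68 and 13.31 in accumbens, 13.68, 13.51 and 13.67 in prefrontal cortex, and 12.51, 12.38 and 12.48 in hippocampus. It was 2.16-fold lower in hippocampus than in accumbens (-1.11 ± 0.10, SE, limma adjusted p = 5.5e-06), without overlap, and at -0.64 and not past the test when arrays were scaled to their median. Atp5f1c was 0.48 and 0.33 higher in hippocampus than in accumbens and prefrontal cortex, and Atp5pd, a peripheral stalk subunit, 0.46 and 0.55 higher. Under all 4 scalings Atp5pd kept its call against prefrontal cortex but not against accumbens. The ring subunit genes Atp5mc1, Atp5mc2 and Atp5mc3 were 0.09 to 0.13 higher in hippocampus than in accumbens by their brightest probes. Atp5mc1 did not pass (limma adjusted p = 0.14), and the others did, though neither kept its call under all 4 scalings. Further probes gave 0.24 for Atp5mc2 and 0.17 and 0.12 for Atp5mc3. Glial and neuronal marker levels moved with these comparisons. Oligodendrocyte markers averaged 3.82 above the array median in accumbens, 2.89 in prefrontal cortex and 3.28 in hippocampus, astrocyte markers 4.97, 4.84 and 4.59, and neuron markers 5.97, 6.18 and 5.75. Their part in the member levels was not tested.

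The promoters are shown because nuclear respiratory genes are known to share binding sites for NRF1, the ETS factor NRF2 (GABP) and YY1. RefSeq promoter windows of the GRCr8 build, 250 bases before to 50 after the start, were matched for 77 of the 91 members. In the windows below, capitals mark matches to the NRF1 motif (GCGCA, any base, GCGC) or to CCGGAAG (ETS), AAGATGGC (YY1) or TCAAGGTCA (ERR), on either strand, and a match is only an occurrence of these letters. Ndufa12 and Uqcrc1 are shown for their strain and area values, Atp5me because its window holds the first 3 motifs, and Cycs as a member without an exact match. The Cycs window does hold a stretch that differs from the NRF1 motif in the first base alone. A window without a match may therefore still hold a binding site. The windows are chr7:30658066-30658365 (plus strand) for Ndufa12, chr8:118467973-118468272 (plus) for Uqcrc1, chr14:1464610-1464909 (plus) for Atp5me and chr4:80984718-80985017 (minus) for Cycs.
Ndufa12: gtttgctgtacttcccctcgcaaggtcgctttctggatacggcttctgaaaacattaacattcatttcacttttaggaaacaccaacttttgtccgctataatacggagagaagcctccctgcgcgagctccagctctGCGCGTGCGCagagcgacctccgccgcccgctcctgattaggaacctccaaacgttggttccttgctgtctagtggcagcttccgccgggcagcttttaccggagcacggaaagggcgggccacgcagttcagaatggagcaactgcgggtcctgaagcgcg
Uqcrc1: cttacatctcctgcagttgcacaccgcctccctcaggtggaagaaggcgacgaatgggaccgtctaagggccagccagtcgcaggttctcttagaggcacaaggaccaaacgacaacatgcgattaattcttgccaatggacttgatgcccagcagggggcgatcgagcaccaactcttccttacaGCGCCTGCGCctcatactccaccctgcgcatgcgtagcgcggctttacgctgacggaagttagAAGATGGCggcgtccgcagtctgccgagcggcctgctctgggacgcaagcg
Atp5me: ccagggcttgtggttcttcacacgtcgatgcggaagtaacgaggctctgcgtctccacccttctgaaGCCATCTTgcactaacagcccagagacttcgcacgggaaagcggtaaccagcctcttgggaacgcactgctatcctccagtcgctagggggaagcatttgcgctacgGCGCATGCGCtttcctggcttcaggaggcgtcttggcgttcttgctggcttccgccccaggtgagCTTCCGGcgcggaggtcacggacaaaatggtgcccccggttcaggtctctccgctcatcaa
Cycs: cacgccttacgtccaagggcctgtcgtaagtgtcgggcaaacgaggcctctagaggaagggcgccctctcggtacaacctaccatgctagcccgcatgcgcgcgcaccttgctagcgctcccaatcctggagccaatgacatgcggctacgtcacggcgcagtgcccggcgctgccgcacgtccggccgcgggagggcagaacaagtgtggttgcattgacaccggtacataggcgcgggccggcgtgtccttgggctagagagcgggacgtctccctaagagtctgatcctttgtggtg

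NRF1 letters were in 16 of the 77 member promoters (20.8%), beside 7.47% of 13225 promoters of named array genes of the same length. ETS letters were in 23 (29.9% beside 13.3%), YY1 letters in 14 (18.2% beside 4.22%) and ERR letters in 2 (2.6% beside 0.25%). The Sp1 letters GGGCGG were in 34 (44.2% beside 51.1%). No matches of 2 motifs overlapped, and 44 promoters held at least 1 of the NRF1, ETS and YY1 letters, 8 of them 2 or more. The median GC content was 57.0% in member promoters and 58.3% over the array genes. No test of motifs against expression was made.

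**Figure D5:**
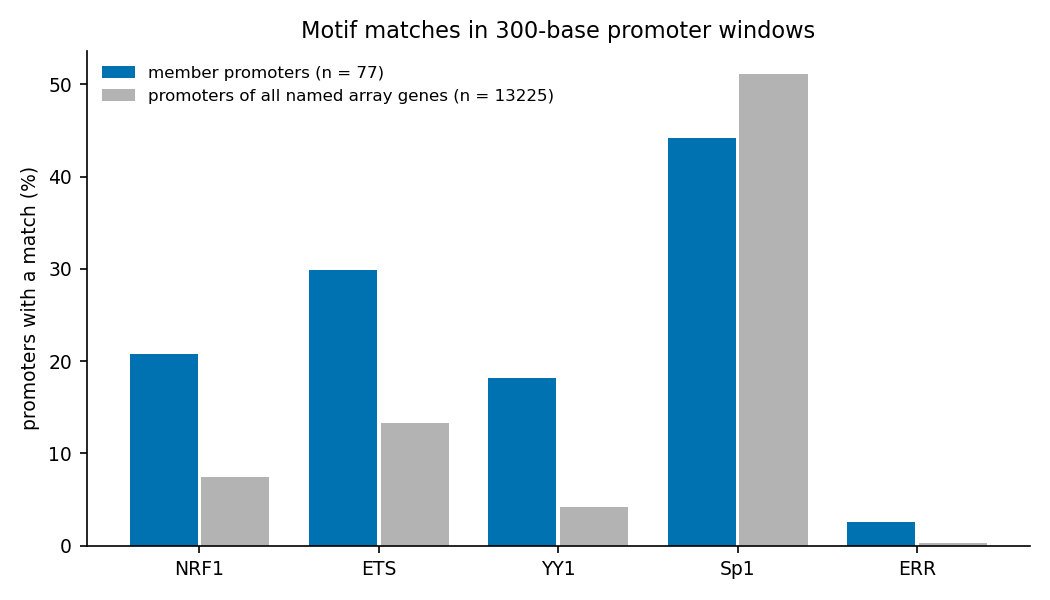
Share of 300-base promoter windows with a match to each motif, for 77 members and 13225 named array genes. The NRF1, ETS and YY1 bars of the members (20.8%, 29.9% and 18.2%) stand above those of the array genes (7.47%, 13.3% and 4.22%), and the Sp1 bar stands below.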

How the data were processed

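RNA of 18 pools of 3 rats was extracted on RNeasy columns and labelled with an Agilent low-input kit, per the labels' protocols. Arrays were scanned with Agilent Feature Extraction 10.10.1.1, per the file headers, which deposited mean foreground, median background and processed intensity values per spot, with positions in rn4. The authors' deposited value table holds log2 ratios. Its columns correlated at 0.93 to 1.00 with the ratios computed here, so that WHP over WLP is its direction, and it was used as an alternative.

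Background was corrected with normexp (offset 50) on 45018 spots of 41012 probes, ratios were normalized by loess within arrays (limma 3.58.1, R 4.3.3), and the 1639 control spots and non-uniform spots were left out. Levels were scaled by quantiles of the mean log2 intensity between arrays. Dye-swapped arrays were averaged to 9 pool pairs, which the labels call biological replicates. The precision is limited by their number. limma was fitted with 1 coefficient per area (lmFit, eBayes, 6 residual and 2.46 prior degrees of freedom for ratios, 3.64 prior for levels), and Benjamini-Hochberg adjusted p over all detected probes. Of a gene's probes the brightest detected one was used. Named were members past a test (up to 6 per direction by size), per role the members with the smallest p in each direction of the mean, and isoform groups. Members, lists and this rule were chosen with earlier results of these data known. Other backgrounds, normalizations, detection filters, probe rules, fits and left-out pairs were tried, and the fits were tested on simulated data. Same-numbered accumbens and prefrontal pairs shared a slide, and deviations of same-numbered pairs had no common sign of correlation.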

Additional observations from a re-analysis of the deposited data

Results flagged for a closer look

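Dixon's test was run on 138 sets of the 6 arrays of an area, made from ratios and levels of members named in the report. In 6 sets an array stood apart from the other 5. For independent values chance gives about 1 in 20. The arrays here are dye-swapped pairs and the sets share them, so that rate is only a rough guide. None of these values was weighed for a cause.

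In accumbens, the array of pair 3 with WHP in Cy3 stood apart in 3 sets. The log2 WHP over WLP of Cycs, cytochrome c, was 0.38 there and at most 0.13 on the other 5 arrays. The log2 level of Atp5f1a, the alpha subunit of ATP synthase, was 13.05 there and at least 13.54 on the others. The log2 level of Atp5pd, a stalk subunit, was 14.95 there and at most 14.83 on the others.

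In prefrontal cortex, the ratio of Ndufs7, an iron-sulfur subunit of complex I, was -0.39 on the array of pair 1 with WHP in Cy5 and -0.07 or higher on the others. In hippocampus, the level of Atp5pd was 15.20 on the array of pair 2 with WHP in Cy3 and at least 15.29 on the others. The level of Cox4i1, a complex IV subunit, was 12.40 on the array of pair 2 with WHP in Cy5 and at least 12.62 on the others.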

How the results depend on the processing

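Counts of members past the strain test were small. They moved with most settings in hippocampus and in the mean of the areas, and seldom or never elsewhere. The causes were not tested. In accumbens the count went from 0 to 1 with WHP in Cy5 alone (Ndufa2) and ranged from 0 to 1 over left-out pairs (Cox8a without pair 1). In prefrontal cortex, and for differences between areas, it was 0 under every alternative run. In hippocampus the count of 1 fell to 0 with the scanner's processed signals, the deposited table, median normalization, an offset of 16, without the pool pairs whose swapped arrays correlated under 0.1, with either dye orientation alone, with the area fitted alone, with a trended and robust prior, with the replicate number as a block, without prefrontal pair 2 and hippocampus pair 1 together (added after seeing the data), and without any 1 pair (0 to 0). In the mean the count of 2 fell to 0 with processed signals, the deposited table, median normalization, without the low-correlation pairs, with the trended prior and without prefrontal pair 2 and hippocampus pair 1. It was 1 with an offset of 16 and with the replicate block, 14 with WHP in Cy5 alone, 14 with WHP in Cy3 alone, and 0 to 5 over left-out pairs. Dmac2 in the mean stayed below 0 in all 25 alternatives (-0.26 to -0.03, adjusted p of 0.012 to 0.81) and lost its call in 8. Ndufa12 also stayed below 0 (-0.20 to -0.11, adjusted p of 0.010 to 0.61) and lost its call in 14. Medians over members moved with median normalization to 0.20 in accumbens, 0.079 in prefrontal cortex and -0.20 in hippocampus, and to -0.058 in hippocampus with WHP in Cy3 alone. With WHP in Cy5 alone, 7 of the 21 members named for a call or smallest p turned the sign of their mean ratio. These were Atp5me (0.23), Sdhd (-0.17), Atp5hl1 (-0.13), Ndufb5 (-0.063), Ndufaf1 (-0.046), Ndufaf6 (0.058) and Cycs (-0.0022). Of the further isoform genes, Cox6a1 (0.16), Cox4i1 (0.093), Cox7a2l (-0.056), Atp5mc2 (0.032), Ndufa4 (-0.019) and Atp5mc1 (-0.016) turned too. Level counts with array-median scaling were 0 for accumbens against prefrontal cortex, 15 for hippocampus against accumbens and 29 for hippocampus against prefrontal cortex, and 22 for the first with processed signals. With the mean of a gene's probes Uqcrfs1 was 0.055 higher in accumbens than in prefrontal cortex. Same-numbered pairs had ratio deviations correlated at -0.38 to 0.17 between areas, without a common sign. Accumbens and prefrontal pairs of a number shared a slide, and the replicate block left 38, 64 and 61 level calls. The area alone gives no value for the mean or differences, and slide could not be a block in hippocampus or the mean. The hippocampal pairs, scanned apart, limit every level statement about that area.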

Other observations

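Some members had opposite signs of the strain ratio in all 3 pairs of 2 areas, a description without a test that held for 5 of 89 members (5.62%) and 7.11% of all named genes. Cox7b, a complex IV subunit, and Ndufab1, the acyl carrier protein, were above 0 in all 3 accumbens pairs and below 0 in all 3 hippocampal pairs. Ndufa8, an accessory subunit of complex I, and the assembly factors Ndufaf2 and Ndufaf7 were above 0 in all prefrontal pairs and below 0 in all hippocampal pairs. Meningeal and fibroblast markers, 12 genes detected in each area, had median strain ratios of 1.22, 2.50 and -0.89 in accumbens pairs 1 to 3 and -1.01, -0.21 and 0.91 in the prefrontal pairs.

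Among 16 glycolysis genes, 1 was higher and 10 were lower in level in accumbens than in prefrontal cortex (median -0.27), beside 23.6% and 26.7% of named genes, with quantile scaling. Of 10 inner membrane carriers, 4 were higher and 1 lower in that comparison (median 0.13). Other scalings were not run for these lists.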
